A study of Mus musculus with 6 samples.

Results

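The 46 genes described here encode the machinery of the cell division cycle and of DNA replication, from the G1 cyclins to mitotic kinases and cyclin-dependent kinase inhibitors. They were chosen by gene symbol, and each was read at a probe annotated to that symbol alone. Where several probes met this condition (Cenpe), the one with the highest mean log2 intensity over all 6 samples was used. Of the 46 genes 38 had such a probe, among 13840 genes with a probe of 1 symbol and 33012 probes on the array. Probes were found for 6 of 9 genes of G1 and the G1/S transition, 7 of 9 of origin licensing and the replication fork, 4 of 4 of deoxynucleotide supply, 18 of 20 of G2 and mitosis and 3 of 4 inhibitors, with which Rb1 was grouped. Ccne2, Cdk2, E2f1, Mcm3, Mcm7, Ccnb1, Mki67 and Cdkn2c were not analysed here.

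RAW 264.7 is an established mouse macrophage-like line that proliferates in culture, LPS is a bacterial endotoxin that activates macrophages, and 15(S)-HETE (15-HETE) is made from arachidonic acid by hydroxylation. All samples were RAW 264.7 cells stimulated with 1 μg/mL LPS and harvested at 24 h, and the groups differed in 40 μM 15(S)-HETE, given immediately before the LPS in 3 samples and absent from the other 3. No vehicle is named for the LPS samples. Each of the 3 biological replicates per group pooled 6 wells, and labelled cRNA made from the total RNA was hybridized to ABI mouse genome survey arrays. The deposited values were linear, quantile normalized intensities, and every sample had a median of 837. Macrophage identity genes were bright, with all 11 measured genes of 16 above the median probe, and with summed intensities of 6132000 to 6781000 in the LPS samples and 6702000 to 6958000 after 15-HETE. None of these 11 genes was called, 9 had positive values (median 0.23), 2 were higher and 0 lower at an unadjusted p under 0.05, and 1, the Fc receptor gene Fcgr3 (0.62), was higher when the prior variance of limma followed intensity. Over all probes the shares higher and lower were 8.62% and 11.0% unadjusted, and 3.87% and 4.96% under that prior. Which arrays were hybridized in 1 set is not given in the sources used here, so array set and treatment cannot be told apart, and the small number of arrays limits the precision.

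Progress through the cycle is driven by cyclins, which rise and fall and activate cyclin-dependent kinases. In G1, D-type cyclins with Cdk4 or Cdk6 and then cyclin E with Cdk2 phosphorylate the retinoblastoma protein and release E2F factors, which switch on genes of DNA synthesis. Genes of G2 and mitosis are switched on later, and p21 and p27 bind and restrain the kinases. LPS is known to slow proliferation of macrophages. In RNA pooled from a culture, a change in the share of cells in a phase and a change in RNA per cell cannot be told apart.

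The promoters of 4 genes are shown because the results turn on them: Rrm1 (nucleotide supply), Cdkn1b (inhibition) and Ccnf (G2) had higher intensities after 15-HETE and Ccne1 (G1/S) lower ones, and these 4 passed the test when the spread of a probe was modelled by its intensity. Each window runs 5′ to 3′ along the gene from 250 bases before to 50 bases after the RefSeq start site on GRCm38.p6. Capitals mark the letters of E2F core words (TTCCCGC or TTGGCGC or TTCGCGC or TTGCCGC), of the cell cycle homology region of G2 and mitosis genes (TTTGAA or TTTAAA) and of the CCAAT box (CCAAT), on either strand.
Rrm1, chr7:102441445-102441744, plus strand: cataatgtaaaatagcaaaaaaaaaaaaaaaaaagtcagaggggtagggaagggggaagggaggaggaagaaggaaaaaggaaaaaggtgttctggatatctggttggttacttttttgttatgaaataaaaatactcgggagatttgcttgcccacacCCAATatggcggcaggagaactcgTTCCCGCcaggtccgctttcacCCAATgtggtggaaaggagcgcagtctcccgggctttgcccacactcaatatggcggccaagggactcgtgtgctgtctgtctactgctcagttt
Cdkn1b, chr6:134920151-134920450, plus strand: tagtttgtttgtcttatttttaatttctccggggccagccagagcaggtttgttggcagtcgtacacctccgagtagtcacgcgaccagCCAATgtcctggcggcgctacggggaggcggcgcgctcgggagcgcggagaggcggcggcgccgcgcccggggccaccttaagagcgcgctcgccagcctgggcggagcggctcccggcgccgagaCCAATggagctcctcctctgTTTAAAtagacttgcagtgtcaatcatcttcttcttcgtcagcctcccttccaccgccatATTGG
Ccnf, chr17:24251360-24251659, minus strand: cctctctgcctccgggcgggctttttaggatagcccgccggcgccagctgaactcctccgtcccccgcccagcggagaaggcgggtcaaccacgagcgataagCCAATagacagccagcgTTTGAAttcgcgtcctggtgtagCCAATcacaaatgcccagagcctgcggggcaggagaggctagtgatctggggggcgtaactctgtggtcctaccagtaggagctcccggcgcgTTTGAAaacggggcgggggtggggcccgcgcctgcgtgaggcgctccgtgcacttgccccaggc
Ccne1, chr7:38107441-38107740, minus strand: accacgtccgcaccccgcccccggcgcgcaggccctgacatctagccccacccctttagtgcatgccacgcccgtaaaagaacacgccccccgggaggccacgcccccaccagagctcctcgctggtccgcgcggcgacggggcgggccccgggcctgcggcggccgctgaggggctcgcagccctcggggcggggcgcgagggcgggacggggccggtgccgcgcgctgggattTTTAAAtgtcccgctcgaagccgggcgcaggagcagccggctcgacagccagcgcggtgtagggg

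The Rrm1 window held 1 E2F core word (TTCCCGC) and 2 CCAAT boxes. That of Cdkn1b held 1 homology region word and 3 CCAAT boxes, the last of them on the opposite strand (ATTGG). The Ccnf window held 2 homology region words and 2 CCAAT boxes, and that of Ccne1 held 1 homology region word, TTTAAA, and no word of the other kinds. These are matches of letters and not shown to be binding sites, and a missing match says nothing about a factor.

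The gene groups differed in how often their promoters held these words. RefSeq windows were found for 38 of the 46 genes (42 windows), of which 31 also had a probe. An E2F core word stood in 66.7% of the 9 windows of origin licensing and fork genes and in 17.6% of the 17 windows of G2/M genes, against 13.3% of 13929 windows of genes with a probe and 9.57% of all 32851 windows. A homology region word stood in 88.2% of the G2/M windows and in 33.3% of the origin and fork windows, against 23.4% and 27.6%. CCAAT boxes were in 88.9% and 88.2% of these groups, against 37.7% and 37.4%. The windows of Mcm3, Mcm7, Ccnb1 and Mki67, genes without such a probe, are counted in these groups, and each held an E2F core word. Each kind was in 2 of the 4 windows of deoxynucleotide supply. The 7 windows of G1 genes held them in 14.3%, 14.3% and 28.6%, and the 5 of the inhibitors, which leave out Rb1, in 20.0%, 20.0% and 40.0%. TTGGCGC after an A also holds a CCAAT box on the opposite strand, and words of different kinds shared bases in 5 of the 42 windows, 4 of them of Mcm genes.

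**Figure D1:**
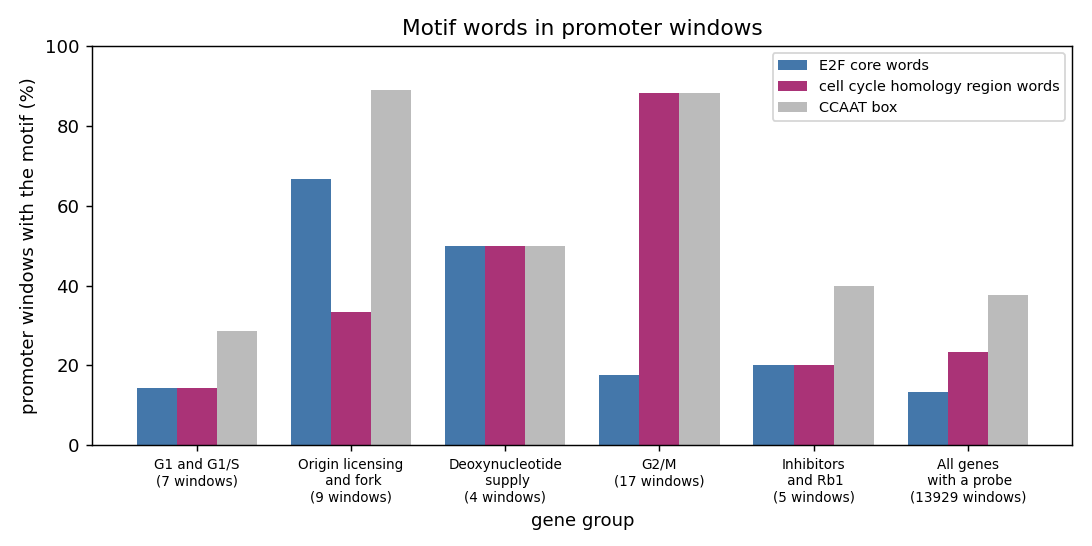
Percentage of promoter windows (vertical axis) that hold an E2F core word, a cell cycle homology region word or a CCAAT box on either strand, by gene group (horizontal axis, with the number of windows). Homology region words were in 88.2% of G2/M windows and E2F core words in 66.7% of origin licensing and fork windows, and both bars are above those of all genes with a probe. The gene groups also count windows of genes without a probe.

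Among the 38 measured genes, the RNA of Rrm1, the large subunit of ribonucleotide reductase, and of Cdkn1b, the inhibitor p27, rose after 15-HETE, and no gene passed as lower. A log2 fold change is the mean log2 intensity with 15-HETE minus that with LPS alone, and a gene passed when its limma p, adjusted over all 33012 probes by Benjamini-Hochberg, was under 0.05. The 2 of 38 genes called higher stood against 0.509% of all probes, and the 0 called lower against 0.442%. Both genes, and Ccnf, were named by the study on these same samples, so their changes are not independent evidence. Of the 38, 23 had a positive and 15 a negative log2 fold change, a positive share of 60.53% against 51.64% of all 13840 genes, with a median of 0.08 against 0.02. The median size of the change, regardless of sign, was 0.29, against 0.37 for all genes.

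With the prior variance of limma following mean intensity (the intensity trend), Ccnf, the F-box protein cyclin F, passed as well with a higher intensity, and Ccne1, cyclin E1, as the only lower one of the 38. This is 3 higher and 1 lower of 38, against 3.87% and 4.96% of all probes. At an unadjusted p under 0.05 there were 5 higher and 2 lower, against 8.62% and 11.0%. The groups did not overlap, with every treated sample above every LPS sample, for 9 genes, and with every treated sample below for 5, against 13.7% and 16.3% of probes. Of all 13840 genes with a probe of 1 symbol, 2427 had every treated sample above and 2455 every treated sample below. For a single gene an exact permutation test of 3 samples against 3 cannot give a two-sided p under 0.1. The limits of the 95% interval lay within 1 log2 unit of 0 for 17 of the 38 genes, 5 of them of the origin and fork and 7 of G2/M. The same held for 5887 of all 13840 genes.

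**Figure D2:**
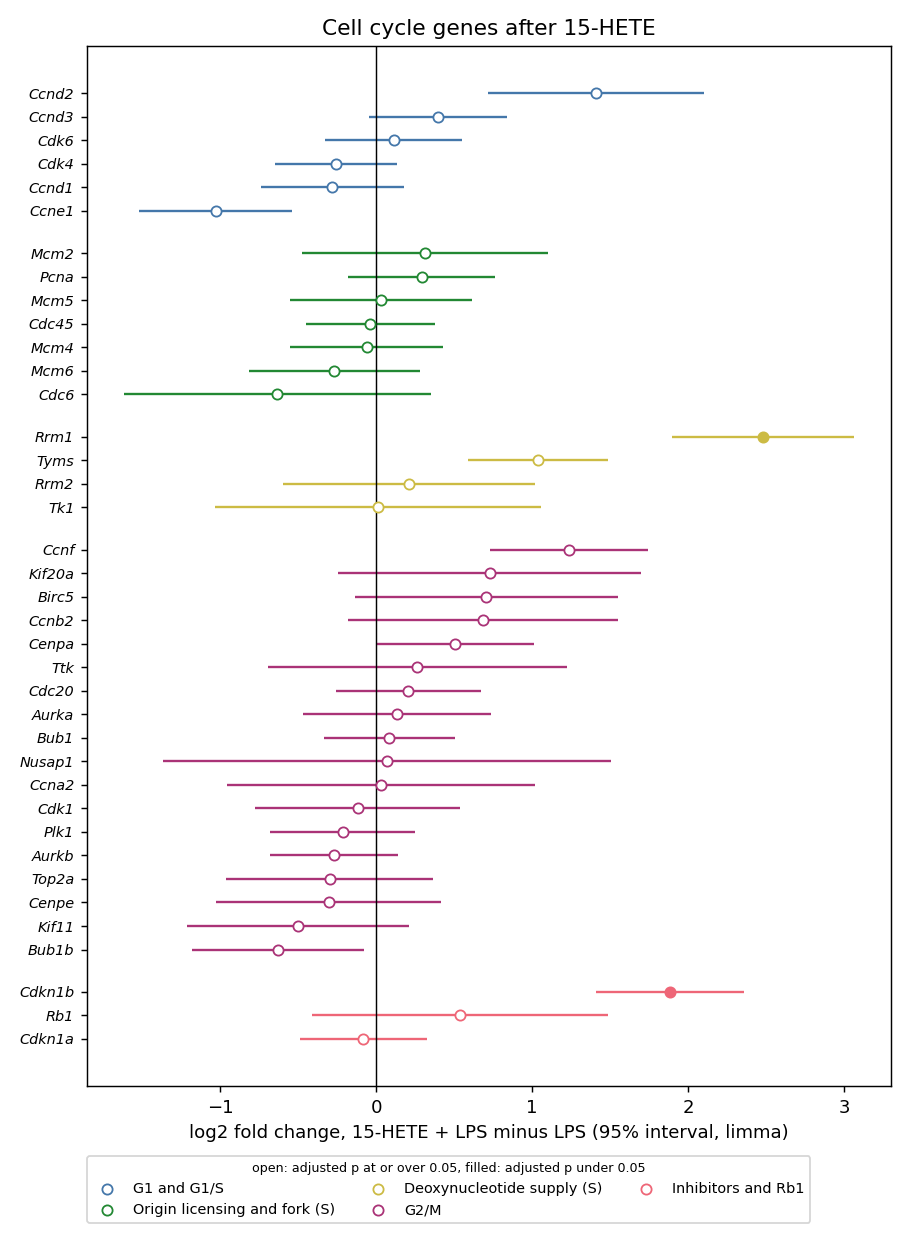
Log2 fold change of the 38 measured genes (horizontal axis, 15-HETE + LPS minus LPS, points) with its 95% interval from limma (lines), n = 3 per group, by gene and group (vertical axis and colours), with filled points at an adjusted p under 0.05. Rrm1 and Cdkn1b are the filled points, Ccne1 lies lowest at -1.03, and most other intervals cross 0.

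In G1, the RNA of cyclin E1 was lower in every treated sample, and those of the D-type cyclins had values of both signs. Ccne1, which with Cdk2 commits cells to S phase, had intensities of 8654, 7824 and 8356 in LPS replicates 1 to 3 and of 3346, 4182 and 4763 after 15-HETE. The lowest LPS sample lay above the highest treated sample. This gave a log2 fold change of -1.03 with a standard error of 0.20. The adjusted p was 0.0738, or 0.00767 with the intensity trend and 0.0157 when only probes above the median intensity were tested. The call therefore depends on how the spread is modelled and on which probes are tested. Ccnd2, a partner of Cdk4 and Cdk6, had 451, 731 and 399 in LPS samples and 1130, 1476 and 1476 in treated ones, without overlap. The log2 fold change of 1.41 (standard error 0.29) missed the threshold with an adjusted p of 0.0773, and of 0.0515 with the trend. Ccnd3, another D-type cyclin, had 7608, 6654 and 5872 against 8559, 9073 and 8737, again without overlap (0.40, adjusted p = 0.295).

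The remaining G1 genes had smaller values. Ccnd1, the D-type cyclin not yet named, had a log2 fold change of -0.28, with all 3 treated samples, at 17609 to 22913, below the LPS range of 23342 to 26759. Cdk4 had -0.26 and a narrow spread, from 126881 to 129150 in LPS samples and from 105189 to 110256 after 15-HETE, so that the groups were apart although the change was small (adjusted p = 0.425). Its relative Cdk6 had 0.11, with overlap. The median of the 6 G1 genes was -0.07, with 3 positive and 3 negative.

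Origin licensing and fork genes gave no call. At an unadjusted p under 0.05 the count was also 0 of 7, against 8.62% of all probes higher and 11.0% lower. Cdc6, which loads the Mcm helicase onto origins, had 413, 742 and 893 in LPS samples and 647, 307 and 367 after 15-HETE. Its samples overlapped, and the log2 fold change of -0.64 had a standard error of 0.41 (adjusted p = 0.437). Pcna, the sliding clamp of the polymerases, had 80639, 96840 and 109108 against 111573, 112175 and 124879, with every treated sample higher (0.29, adjusted p = 0.453). Mcm6, a helicase subunit, had 5728, 4105 and 3762 against 3867, 3314 and 3945 (-0.27, adjusted p = 0.555), with LPS replicate 1 high and the others overlapping. The helicase subunits Mcm4 (-0.06) and Mcm5 (0.03) and the helicase cofactor Cdc45 (-0.04) lay near 0, and the subunit Mcm2 had 0.31 (adjusted p = 0.639).

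LPS replicate 1 was the highest of the LPS samples for all 4 Mcm genes. Mcm2 showed this most, with 6219 in that sample and 2992 and 3157 in the other LPS samples, and 4313 to 5447 after 15-HETE. The log2 fold change of Mcm2 was 0.65 without LPS replicate 1 and 0.12 without LPS replicate 2. The median of the 7 genes was -0.04, with 3 positive and 4 negative. It was 0.08 without LPS replicate 1 and 0.04 with cyclic loess normalization between arrays.

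Deoxynucleotide supply held the gene with the largest change of all 38. Rrm1, the subunit of ribonucleotide reductase that carries the catalytic site and binds the nucleotides, had intensities of 429, 324 and 477 in LPS samples and 1865, 2680 and 2293 after 15-HETE, or 410 ± 78.2 and 2279 ± 407 (SD, n = 3). The groups were far apart, and each group was narrow beside the gap. This is a 5.58-fold difference, or 2.48 on the log2 scale with a standard error of 0.24 (adjusted p = 0.0327). All LPS values of Rrm1 lay below the array median of 837. With an offset of 100 added before log2, its log2 fold change was 2.22. Leaving out each sample in turn gave 2.32 to 2.62, although with 5 samples limma called 0 probes on the whole array.

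Rrm2, the small subunit that holds the radical needed for the reaction, had a smaller value. Its intensities were 2204, 1794 and 1914 in LPS samples and 3357, 2408 and 1449 after 15-HETE. The treated samples lay on both sides of the LPS range, and the log2 fold change was 0.21 (standard error 0.33, 95% interval -0.60 to 1.01). The interval of Rrm1 began at 1.90, and the difference between the 2 subunits was not tested. Tyms, which makes thymidylate from deoxyuridylate, had 155, 164 and 130 in LPS samples and 293, 333 and 293 after 15-HETE. Each treated sample was above each LPS sample (1.04, standard error 0.19, adjusted p = 0.0637, 0.0802 with the trend), but the probe was dim, at percentile 2.37 of brightness on the array. Tk1, the thymidine salvage kinase, had 553, 337 and 171 against 297, 365 and 301, with a wide spread among the LPS samples (0.01). The median of these 4 genes was 0.62, and all 4 values were positive. Tk1 turned negative with the offset, with cyclic loess and without LPS replicate 3, where it was -0.43. With the offset Tyms had 0.70 and the median was 0.45.

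**Figure D3:**
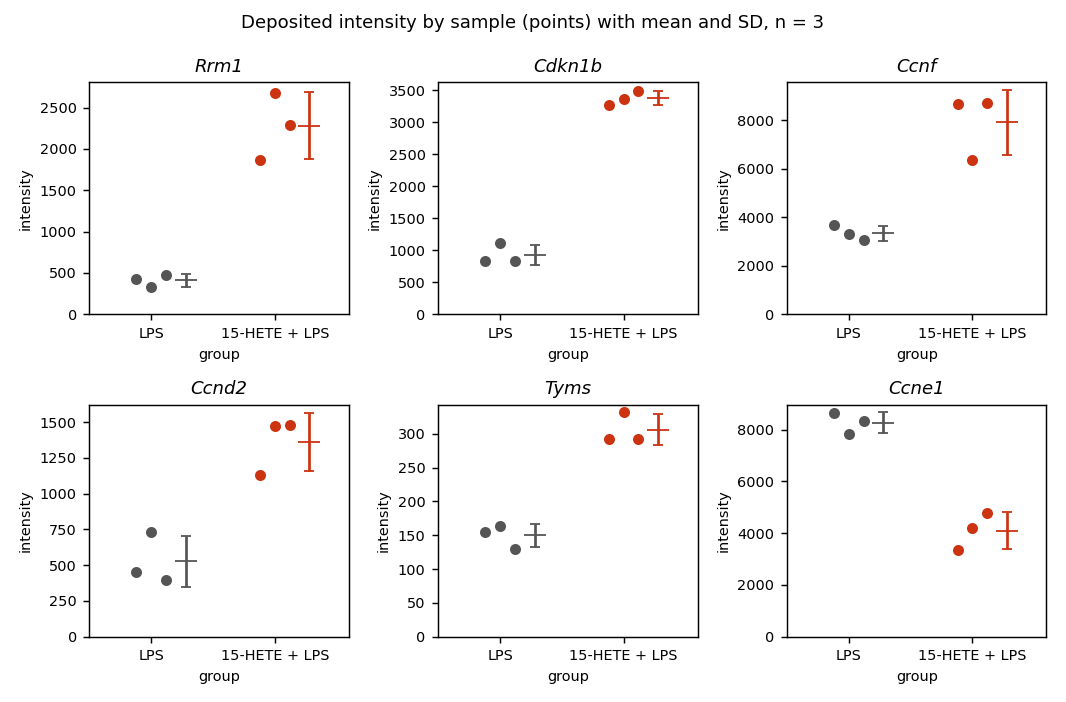
Deposited intensity (vertical axis, linear, from 0) of Rrm1, Cdkn1b, Ccnf, Ccnd2, Tyms and Ccne1 in the LPS and the 15-HETE + LPS samples (horizontal axis), with points for samples and bars for mean and SD, n = 3 per group. The groups do not overlap for any of the 6 genes, and Ccne1 is the one with lower treated samples.

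In G2 and mitosis, the RNA of cyclin F was higher in every treated sample while the other genes had values of both signs and none passed. Ccnf, which as part of an SCF ubiquitin ligase marks Rrm2 for destruction in G2, had intensities of 3663, 3308 and 3045 in LPS samples and 8665, 6363 and 8715 after 15-HETE, or 3339 ± 310 and 7915 ± 1344 (SD, n = 3). The groups did not overlap, and LPS samples varied little. With a log2 fold change of 1.23 and a standard error of 0.21, Ccnf had an adjusted p of 0.0587, just outside the threshold. It was 0.00457 with the intensity trend, 0.0118 among probes above the median intensity and 0.0409 with an offset of 100 added before log2. Leaving out each sample in turn gave 1.16 to 1.38.

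Bub1b, a spindle checkpoint kinase, had 8454, 6439 and 5326 in LPS samples and 4647, 4081 and 4108 after 15-HETE. The treated samples were all lower, but the LPS samples spread widely (-0.63, standard error 0.23, adjusted p = 0.205). Cenpa, the histone variant of centromeres, had 4028, 5066 and 4971 against 6837, 7598 and 5563, without overlap (0.50, adjusted p = 0.258). Kif20a, a kinesin of cytokinesis, had 1182, 720 and 1231 against 2866, 1343 and 1232. Its groups were apart by a narrow margin, and treated replicate 1 alone stood high (0.73, adjusted p = 0.376).

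Of the other G2/M genes, those with positive values were Birc5, or survivin, of the chromosomal passenger complex (0.71), the mitotic cyclin Ccnb2 (0.68), the checkpoint kinase Ttk (0.26), Cdc20, which activates the anaphase-promoting complex (0.20), the spindle kinase Aurka (0.13), the checkpoint kinase Bub1 (0.08), the spindle protein Nusap1 (0.07) and the S and G2 cyclin Ccna2 (0.03). Those with negative values were Cdk1, the mitotic kinase itself (-0.12), the kinases Plk1 (-0.22) and Aurkb (-0.27), topoisomerase Top2a (-0.30), the kinetochore motor Cenpe (-0.31) and the spindle motor Kif11 (-0.50). None of these passed, at adjusted p-values from 0.324 for Birc5 to 0.976 for Ccna2, and the treated samples were all below the LPS samples for Aurkb alone among them. Some values rested on 1 sample. Birc5 was 0.37 without LPS replicate 1, Ccnb2 0.37 without LPS replicate 3 and Kif20a 0.34 without treated replicate 1. Nusap1 had 860, 541 and 485 in LPS samples and 394, 414 and 1608 after 15-HETE, and without treated replicate 3 the log2 fold change was -0.59.

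The 18 G2/M genes had a median of 0.08, with 11 positive. LPS replicate 1 was the highest LPS sample for 14 of them (77.8%), and for 25 of all 38 genes (65.8%), against 47.3% of all genes with a probe. Without that sample the G2/M median was 0.30, and without treated replicate 2 it was -0.03. The median over all 38 genes was 0.27 without LPS replicate 1.

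**Figure D4:**
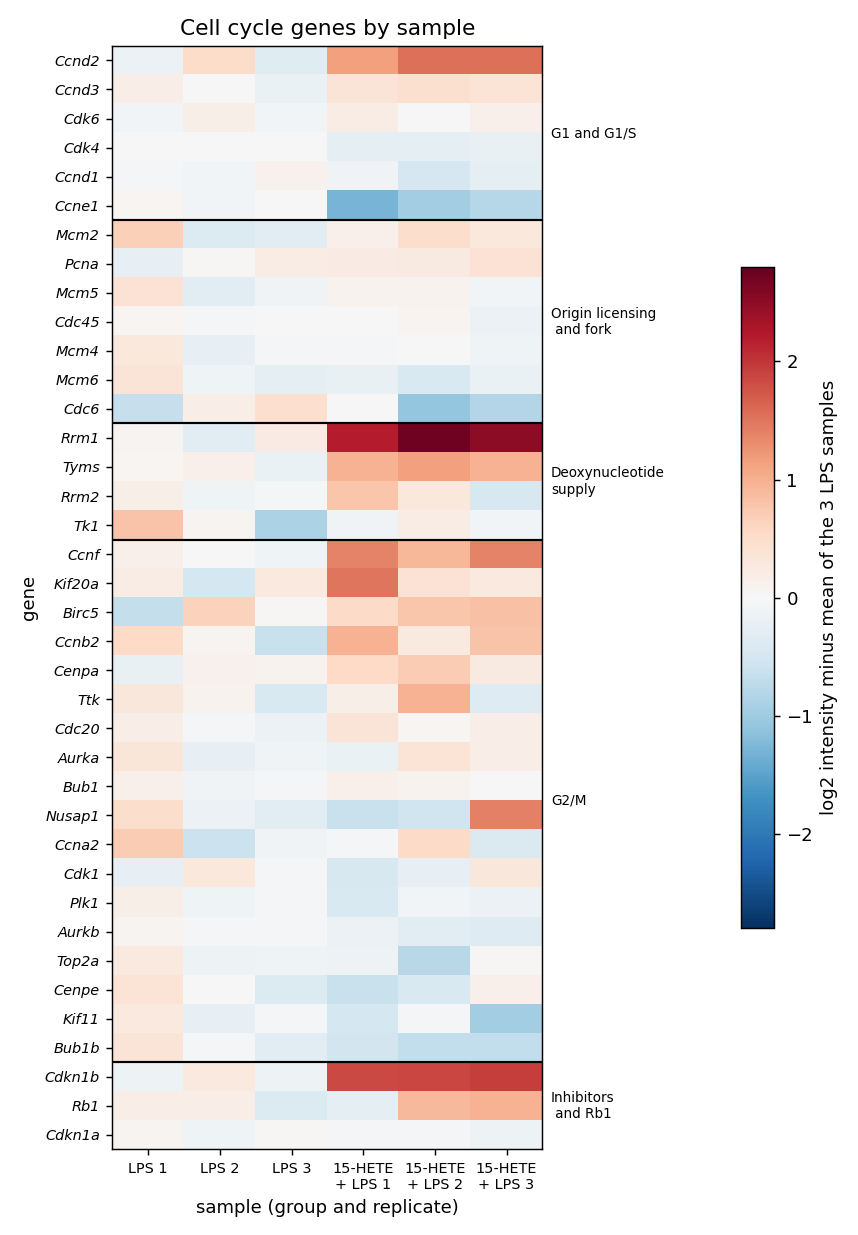
Log2 intensity minus the mean log2 intensity of the 3 LPS samples (colour) for the 38 genes (vertical axis, by group) in each of the 6 samples (horizontal axis). Rrm1 and Cdkn1b are high in all 3 treated samples, Ccne1 is low in them, and LPS replicate 1 is above the other LPS samples for most G2/M genes.

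Of the inhibitors, the RNA of Cdkn1b (p27) rose, and that of Cdkn1a (p21) had a value near 0. Cdkn1b, which encodes p27 and holds back cyclin E with Cdk2, had intensities of 833, 1108 and 828 in LPS samples and 3278, 3364 and 3489 after 15-HETE, or 923 ± 161 and 3377 ± 106 (SD, n = 3). The treated samples lay close together and far above the LPS samples. This is a 3.69-fold difference, or 1.88 on the log2 scale with a standard error of 0.20 (adjusted p = 0.0336). Leaving out each sample in turn gave 1.81 to 2.02. Cdkn1a, which encodes p21, had 103280, 89971 and 98983 against 93641, 93317 and 88737. These overlapped, and the log2 fold change of -0.08 had a 95% interval from -0.49 to 0.32. The interval of Cdkn1b was 1.41 to 2.36, and the difference between the 2 genes was not tested. Rb1, the retinoblastoma protein, had 2408, 2399 and 1627 against 1747, 3949 and 4163, with treated replicate 1 inside the LPS range and the others above it (0.54, adjusted p = 0.495).

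Further genes of these pathways were listed by function. Over all probes, 0.509% were called higher and 0.442% lower. The shares were 3.87% and 4.96% with the trend, and 8.62% and 11.0% at an unadjusted p under 0.05. Among 44 measured of 53 further replication genes, 1 rose and 0 fell, and the median was 0.04. Pole4, an accessory subunit of DNA polymerase ε, which the study also named, had 1668, 1490 and 1500 against 3590, 3257 and 3674 (1.18, standard error 0.17, adjusted p = 0.0498), but did not pass with a robust prior (0.0563) or when probes of a gene were averaged (0.0519). The salvage kinase Dck (1.00, adjusted p = 0.0752), the histone chaperone subunit Chaf1a (-1.29, adjusted p = 0.0704) and the single-strand binding subunit Rpa2 (-0.78, adjusted p = 0.112) did not pass. The trend gave 4 higher and 5 lower, and an unadjusted p under 0.05 gave 5 and 6. Among 30 measured of 39 further genes of G1, E2F and RB control, 1 rose and 0 fell, and the median was -0.12. For these genes the trend gave 7 higher and 4 lower, and an unadjusted p under 0.05 gave 8 and 7. Lin52, a subunit of the MuvB complex that binds homology region promoters, had 1074, 979 and 922 against 2505, 2974 and 2778 (1.47, standard error 0.18, adjusted p = 0.0395). Cdc25a, the phosphatase that activates Cdk2, had 14963, 12379 and 13151 against 6318, 6046 and 6360, without overlap, and missed the threshold (-1.11, adjusted p = 0.0524, 0.00199 with the trend). Cdk9, a kinase of transcription elongation named by the study, had 1.06 (adjusted p = 0.0517), and Ccnh, the cyclin of the Cdk-activating kinase, -0.72 (adjusted p = 0.103).

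Of 60 measured of 76 further mitosis genes limma called 0, against 4 higher and 10 lower at an unadjusted p under 0.05 and 2 and 5 with the trend, and the median was -0.10. For this and the following lists, the shares over all probes were 8.62% and 11.0% unadjusted and 3.87% and 4.96% with the trend. Ect2, the exchange factor that starts cytokinesis, had 839, 825 and 864 in LPS samples and 236, 250 and 486 after 15-HETE (-1.46, adjusted p = 0.0842), and the microtubule-binding Gtse1 had -1.55 (adjusted p = 0.108). Of the genes with positive values Cdc23 (1.05, adjusted p = 0.107) and Anapc5 (0.81, adjusted p = 0.152), subunits of the anaphase-promoting complex, had the lowest p, while other subunits such as Anapc2 (-0.50) and Anapc4 (-0.38) had negative values. Of 18 measured of 23 p53 target and growth arrest genes 0 were called, 3 higher and 2 lower with the trend and 4 and 2 at an unadjusted p under 0.05. In that list the antiproliferative Tob2 had -1.19 (adjusted p = 0.0637) and Btg1 0.76 (adjusted p = 0.132), and the p53 targets Phlda3 and Zmat3 had 0.98 (adjusted p = 0.0864) and -0.65 (adjusted p = 0.174). Of 15 measured of 22 DNA damage checkpoint genes 0 were called, against 1 higher and 1 lower at an unadjusted p under 0.05 and 1 higher and 0 lower with the trend. Rad1 of the checkpoint clamp had 0.61 (adjusted p = 0.140, 0.0424 with the trend), its loader Rad17 0.25 (adjusted p = 0.473), the kinase Chek2 -1.26 (adjusted p = 0.230) and Atrip, the partner of the kinase ATR, -0.50 (adjusted p = 0.259).

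Of 12 measured housekeeping genes of 14 limma called 0, against 1 higher and 1 lower at an unadjusted p under 0.05 and 1 higher with the trend. Here and for the markers below, the shares over all probes were 8.62% and 11.0% unadjusted and 3.87% and 4.96% with the trend. Tbp had 0.49, Rplp0 0.34 and Gusb -0.63. Ywhaz had -0.43 at its brightest probe, with 1104440 in LPS replicate 1 and 632214 and 644547 in the other LPS samples, but -0.17 without LPS replicate 1 and 0.09 as the mean of its probes. Among markers of other cells, those of fibroblasts and of granulocytes and erythroid cells had lower sums in every treated sample. The summed intensities of 8 fibroblast markers were 24950 to 31040 in LPS samples and 16720 to 17840 after 15-HETE, those of 6 of 9 granulocyte and erythroid markers 6725 to 8525 and 3171 to 6176, those of 8 epithelial markers 8053 to 10050 and 5042 to 8188, and those of 7 of 9 lymphocyte markers 4714 to 5685 and 3635 to 7356. The separation of the fibroblast sums rested on 1 gene. All 6 measured granulocyte and erythroid markers had negative values, with a median of -0.71. Without the proteoglycan Dcn (-1.30, adjusted p = 0.0587) the fibroblast sums were 11270 to 13230 in LPS samples and 11370 to 11920 after 15-HETE, and without the peroxidase Mpo (-1.38, adjusted p = 0.0704) the granulocyte and erythroid sums were 4687 to 6496 and 2523 to 5022, and both overlapped. In these lists limma called 0 genes, against 2 higher and 5 lower at an unadjusted p under 0.05 and 0 higher and 3 lower with the trend (Dcn, Krt8 and Mpo), and their part in the results was not tested.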

How the data were processed

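Total RNA of RAW 264.7 cells in 2 groups of 3 biological replicates was measured on ABI mouse genome survey arrays with 1 digoxigenin-labelled cRNA per array. The deposited values are linear chemiluminescence intensities, which the authors obtained from the AB1700 analyzer with its software (version 1.1.1) and then quantile normalized. No value was missing, so the S/N and flag filter of the methods was not applied to the table, and depth in counts does not exist for arrays. Probes were named by the platform annotation, which gives 1 symbol for 14411 probes and several for 247, and all 38 measured genes were found in RefSeq by gene ID.

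Intensities were turned to log2 and tested by limma (version 3.58.1, R 4.3.3), with a linear model and empirical Bayes with the default prior, two-sided, Benjamini-Hochberg over 33012 probes. The fit was also run on simulated data, and the outcome of that run is not given here. Calls used an adjusted p under 0.05. Alternatives were the intensity trend, a robust prior (statmod 1.5.0), an offset of 100, cyclic loess, a second quantile normalization, only probes above the median intensity, the mean of a gene's probes, the replicate number as a block, leaving out each sample, and the methods' t-test (unequal variances) over all probes or over the 5676 probes changed 1.8-fold or more in 2 of 3 treated samples. The methods ran this t-test only on probes past that fold change, and at a stricter cut-off than the 0.05 used here. Every measured gene is named. Per-sample values are given for called genes, the 3 genes of each group with the lowest p, Rrm1, Cdkn1b and Ccnf, and some others chosen after their values were seen. Of further lists other than the cell type markers, the called genes and the 2 of lowest p in each direction are named, and Anapc2, Anapc4, Fcgr3, Dcn, Krt8 and Mpo were named after their values were seen. The genes, lists and alternatives were chosen with earlier results of these data known, and the fit without a sample under the intensity trend and the unadjusted p were added after seeing the data.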

Additional observations from a re-analysis of the deposited data

How the results depend on the processing

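Of the 38 genes 2 passed. That count was also 2 with a robust prior, cyclic loess, a second quantile normalization and the mean of a gene's probes. It was 2 with the methods' t-test over probes past the fold rule, and 3 with the offset of 100. The deposited values were already quantile normalized, and of the 38 genes only Cenpe had several probes. The second normalization and the averaging could therefore hardly change the count. The fold rule kept probes by the same treatment difference that was then tested, so the count under it is no support. The count was 4 with the intensity trend, 5 of 31 among probes above the median intensity and 7 at an unadjusted p under 0.05. Of the 5, Rrm1 and Ccnd2 were below the array median in every LPS sample and were kept through their treated samples, so that count is no support. It was 0 with the methods' t-test over all probes and with the replicate block, settings that called 0 probes on the whole array. Same-numbered samples deviated together by r of -0.024, 0.0035 and 0.0237, and not every sample correlated best with its own number. With 3 samples per group this check showed no pairing by number but cannot exclude it. Leaving out 1 sample gave 0 to 7 calls, 0 each time with the default prior (0 on the whole array) and 4 to 7 with the trend, 7 without LPS replicate 1. Under the trend 2595 of all 33012 probes were called higher and 2540 lower without LPS replicate 1. Without each other sample 535 to 727 were called higher and 688 to 938 lower. The median over the 38 genes ran from 0.0032 (without 15-HETE + LPS replicate 2) to 0.2663 (without LPS replicate 1).

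Some values changed sign. Cdc45 had 0.0416 with cyclic loess, Tk1 had -0.0192 with the offset and -0.0020 with cyclic loess, and Ywhaz, at -0.43 by its brightest probe, had 0.0868 as a mean of its probes. With 1 sample left out, the ranges that crossed 0 were those of Ccna2 (-0.2702 to 0.3808), Cdk1 (-0.3361 to 0.0465), Cdc45 (-0.0913 to 0.0297), Mcm4 (-0.1774 to 0.0802), Mcm5 (-0.1282 to 0.2391), Rrm2 (-0.0720 to 0.5341), Tk1 (-0.4310 to 0.4149), Nusap1 (-0.5939 to 0.4215) and Ttk (-0.0952 to 0.5778), and the cause was not tested. Of 297 values of these 38 genes under the other settings, 286 kept direction and side of the threshold, 6 passed where they had not, 2 no longer passed and 3 changed sign. The trend, the robust prior, the replicate block and the setting with only brighter probes reuse the same fold changes, so direction could not change there. Averaging probes could alter only Cenpe, and a gene that passed in no setting counts as kept. The 286 are therefore no support. Dim probes such as those of Tyms and Ttk limit what can be read from them.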
